A study of Arabidopsis thaliana with 8 samples.

Results

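The effect of the per1 genotype that was common to both growth media was measured in Arabidopsis thaliana roots as the mean of the per1 minus Col-0 difference on control medium and the per1 minus Col-0 difference on Pi-free medium. All 8 arrays of the series entered this comparison, 4 from per1 and 4 from Col-0. Col-0 is the Columbia wild type, and per1 is a mutant in the Col-0 ecotype. Seedlings of both genotypes had spent 10 days on control agar and a further 10 h after transfer to control agar or to agar without phosphate, which gave 4 groups of 2 arrays: Col-0 control, Col-0 Pi-free, per1 control and per1 Pi-free. The titles call the arrays of a group biological replicates, and nothing in the labels says whether they came from separate cultures, so the p-values measure the spread between these arrays. The description field names iron media instead, in a pattern that does not follow the titles, from which the groups were taken. The labels name no allele or number of lines for per1.

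The per1 mutant is known from the literature for root hairs that fail to lengthen when phosphate is scarce, and its lesion lies in UBP14, a ubiquitin-specific protease that takes free ubiquitin chains apart so that the monomers can be used again. Roots of Col-0 respond to a lack of phosphate by lengthening root hairs and by inducing phosphatases and phosphate transporters. Many of the proteins named here are secreted into the cell wall, where expansins, xyloglucan endotransglucosylases, extensins and peroxidases loosen, rebuild or stiffen the wall as cells grow. UBP14 had no probeset with its name in the annotation and was not analysed here, so the level of the mutated gene does not check the genotype labels.

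Signals are linear array units for a probeset, a group of probes against 1 transcript, and changes are differences of log2(signal + 16), on which the change of weak signals is understated. Where ± follows a change, it is the standard error from limma, which pools the spread over the 4 groups. Differences within 1 medium, which rest on 2 arrays against 2, are printed without it. Array medians lay between 186.2 and 197.1, and within-group Spearman correlations lay between 0.975 and 0.9817 over all probesets. Root hair markers with a named probeset, 5 of 21 listed, summed to 5730 to 8788 signal units over the 8 arrays, and 3 of 26 green shoot markers summed to 293 to 706. The markers of endodermis, stele, xylem, phloem, root cap, non-hair epidermis and cycling cells had no named probeset. The 25S ribosomal RNA control probeset, which was left out of the comparison, read 88.4 to 241.8 in per1 and 47 to 143.4 in Col-0. Its part in the results was not tested.

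Averaged over both media, 186 of 22746 probesets, or 0.818%, passed an adjusted p of 0.05 by limma. Of these, 73 were higher in per1 (0.321% of those tested) and 113 were lower (0.497%). The difference had the same sign in both media for 185 of the 186, and for 184 both per1 arrays lay beyond both Col-0 arrays in each medium, 72 higher and 112 lower. Over all probesets, 58.1% had the same sign in both media and 13.3% were separated in this way (6.28% higher and 7.06% lower), so same signs alone were common among probesets that did not pass. Calls were made on the mean of the 2 differences, a rule that favours probesets where both agree. The agreement among calls is therefore no separate support. The size of the called changes had a median of 0.75 and ran from 0.39 to 2.56. A single gene was annotated for 92 of the called probesets, 40 higher and 52 lower, which is 0.681% of the 13513 probesets with 1 gene (0.296% higher and 0.385% lower). With moderated variances that do not follow signal intensity, 0 probesets passed in limma, the lowest adjusted p was 0.06, and 2845 had an unadjusted p under 0.05. Left out in turn, the per1 Pi-free arrays gave counts of 12 (replicate 1) and 17 (replicate 2), the per1 control arrays 23 and 66, the Col-0 control arrays 59 and 31, and the Col-0 Pi-free arrays 232 and 59. Of the 92 named calls, 5 were made in all 8 of these fits (BGLU46, AT1G09750, AT2G41650, AT5G15360 and scpl26) and 23 in none.

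**Figure D1:**
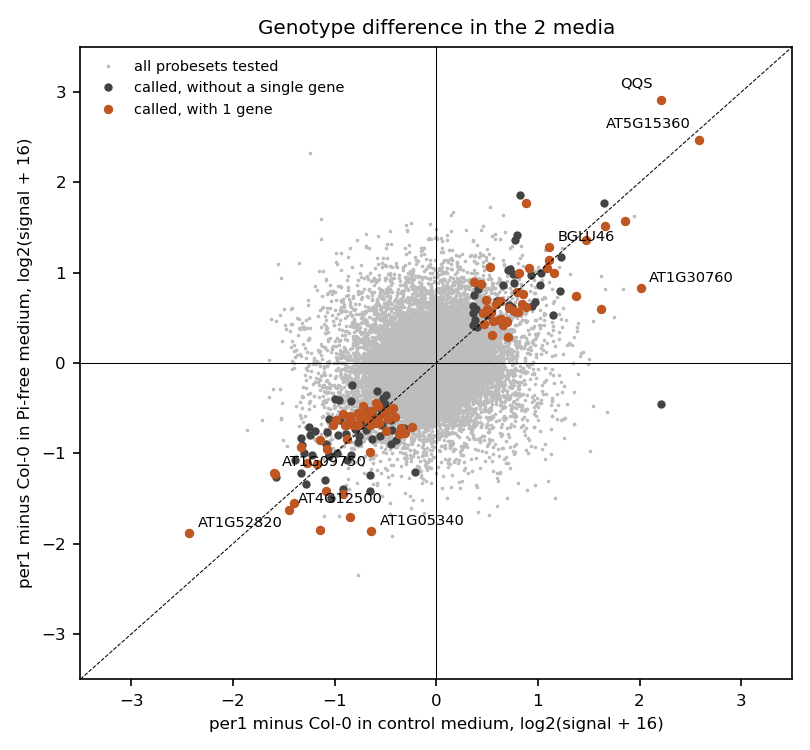
Difference between per1 and Col-0 on control medium (x axis) and on Pi-free medium (y axis), both as log2(signal + 16), for the 22746 probesets tested. Grey points were not called, dark points were called and have no single gene, and orange points are the 92 called probesets with 1 gene. Of the 186 called points, 185 lie in the quadrants where both differences have the same sign, which calling on their mean favours.

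The plot of the difference in one medium against that in the other shows called genes along the diagonal in both directions. Calling on the mean of the 2 differences favours this pattern. Across all 22746 probesets the Pearson correlation of the differences in the media was 0.196, and across the 11373 above the median signal it was 0.442. These are descriptions across genes, which are not independent replicates, although the differences share no arrays. Among the 92 named calls the control difference was larger in size for 55 and the Pi-free difference for 37. Fewer calls were made within a medium, each with 2 arrays against 2: 13 on control medium (0.0572%) and 7 on Pi-free medium (0.0308%). All 13 control calls and 6 of the 7 Pi-free calls were also among the 186, with which they share arrays. A difference between media passed for 2 probesets (0.00879%), of which 1 was among the 186.

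Of the 76 named calls above the median signal, 34 were higher in per1. The 12 largest rises and 12 largest falls were taken from calls with genotypes separate in each medium. That separation is thus a condition of the choice, and all 92 named calls met it. The transcript with the largest rise was AT4G33720, a CAP protein of the secreted PR-1 superfamily. Its signals were 2283 and 1076 in Col-0 and 5716 and 4346 in per1 on control medium, and 2069.6 and 1722 in Col-0 and 5632 and 5240.2 in per1 on Pi-free medium. All 4 per1 arrays lay above all 4 Col-0 arrays, and the rise of 1.59 ± 0.20 on the log2 scale, or 3.01-fold on log2(signal + 16), had an adjusted p of 0.0097 in limma. AT1G30760, a berberine-bridge-like oxidase of the group that oxidises wall-derived sugars and monolignols, read 67 and 118 in Col-0 and 360 and 466 in per1 on control medium, and 113 and 179 in Col-0 and 319.9 and 221 in per1 on Pi-free medium. Its change was 1.42 ± 0.21 (limma adjusted p = 0.022), with 2.01 on control medium and 0.83 on Pi-free medium, and the genotypes did not overlap in either. BGLU46, a beta-glucosidase that releases monolignols, the building blocks of lignin, from their glucosides, read 220.4 and 255 in Col-0 and 537 and 522 in per1 on control medium, and 231 and 209 in Col-0 and 575 and 543 in per1 on Pi-free medium. Replicates lay close together in each group, the change was 1.20 ± 0.10 (limma adjusted p = 0.0020), and BGLU46 was called in each of the 8 fits that left out an array.

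AT5G53010, a putative calcium-transporting ATPase, read 187 and 143 in Col-0 and 606 and 383 in per1 on control medium, and 272 and 158 in Col-0 and 632 and 497 in per1 on Pi-free medium. All per1 arrays were higher than all Col-0 arrays, and the change was 1.42 ± 0.20 (limma adjusted p = 0.018). AT5G12420, related to the acyltransferases that make wax esters, rose by 1.08 ± 0.13, with 989 to 1416 over the 4 Col-0 arrays and 2043 to 2945 over the 4 per1 arrays. AT4G40080, an adaptor of the ANTH type that assists clathrin coats in membrane uptake, rose by 1.07 ± 0.13, with 219.6 to 326 in Col-0 and 545 to 598 in per1. Neither gene overlapped between genotypes, and the change of AT4G40080 was 1.09 on control and 1.05 on Pi-free medium. OSM34, an osmotin-like defence protein, rose by 0.80 ± 0.11 and more on Pi-free medium (1.07) than on control medium (0.52). The difference between media was not past the test for OSM34.

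Another 5 genes complete the 12 largest rises. AT1G67340, an F-box protein with a MYND zinc finger, read 429 to 486 in Col-0 and 729.5 to 883 in per1, a rise of 0.81 ± 0.09 (limma adjusted p = 0.0084). AT5G19890, a class III peroxidase, rose by 0.91 ± 0.15, with 354 to 572 in Col-0 and 656 to 1073 in per1. AT1G69580, a MYB-like transcription factor, rose by 0.79 ± 0.13, with 202 to 297 in Col-0 and 391 to 448 in per1. In all 3 the per1 arrays lay above every Col-0 array. AT2G41730 and AT5G26270, whose roles are not given here, rose by 1.06 ± 0.14 and 0.98 ± 0.12, and the probeset of AT2G41730 is of a type that can share probes with related transcripts.

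**Figure D2:**
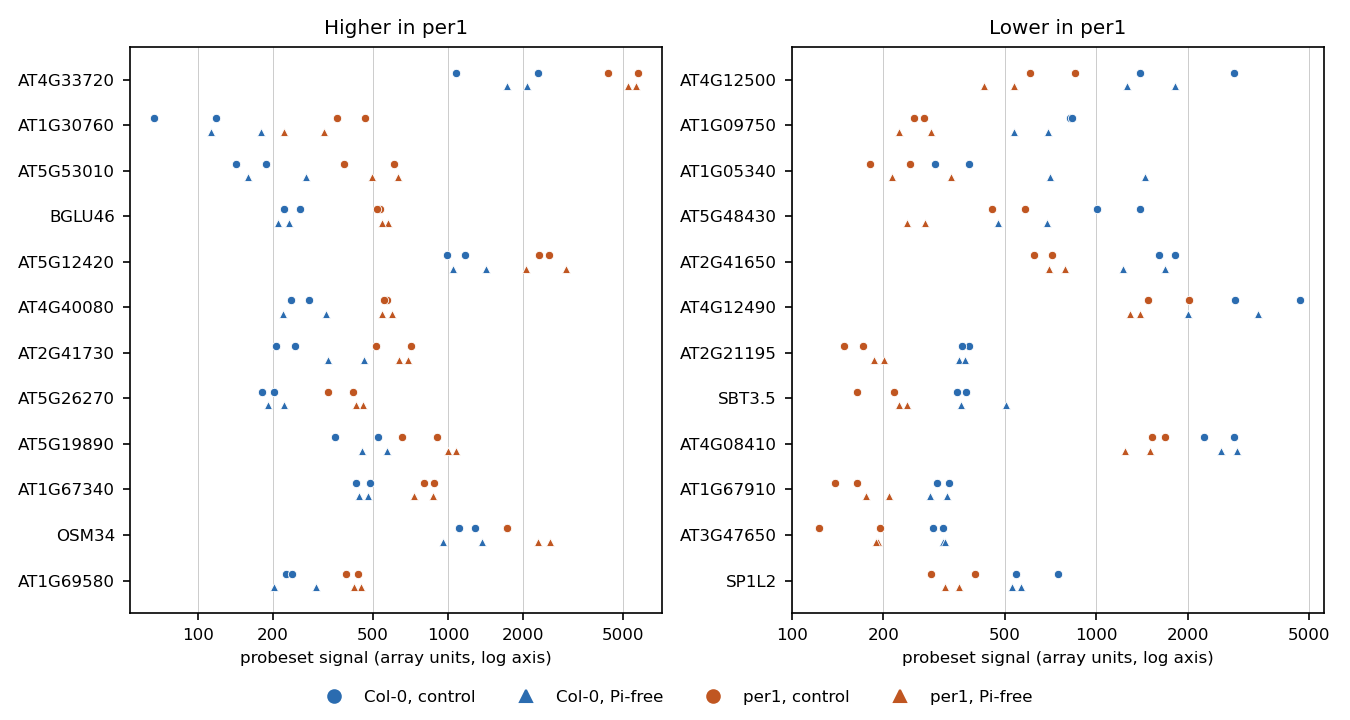
Signal in array units (x axis, log scale) of the 12 genes with the largest rises (left) and the 12 with the largest falls (right) among named calls above the median signal, 1 point per array. Blue marks Col-0, orange per1, circles control medium and triangles Pi-free medium. In each row and medium the orange points lie on 1 side of the blue points, which was a condition for the choice of genes.

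Among the 42 named calls above the median signal that were lower in per1, AT4G12500 fell most. AT4G12500 and its neighbour AT4G12490 encode EARLI1-type proteins, small secreted proteins with a proline-rich stretch and a lipid transfer domain. AT4G12500 read 1394 and 2826 in Col-0 and 605 and 853 in per1 on control medium, and 1267 and 1807 in Col-0 and 428 and 538 in per1 on Pi-free medium. All 4 per1 arrays lay below all 4 Col-0 arrays, although the Col-0 control replicates differed, and the change was -1.54 ± 0.22 (limma adjusted p = 0.018). AT4G12490 read 2863 and 4653 in Col-0 and 1476 and 2013 in per1 on control medium, and 2005 and 3400.3 in Col-0 and 1290.1 and 1396 in per1 on Pi-free medium. Its change was -1.01 ± 0.19 with an adjusted p of 0.049 in limma, and it was called in 1 of the 8 fits that left out an array. Genes of this cluster are near-identical in part, and whether probes read more than 1 of them was not tested.

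AT1G09750, an aspartyl protease and a listed marker of root cortex, read 818 and 833 in Col-0 and 272 and 252 in per1 on control medium, and 694 and 538 in Col-0 and 225 and 287 in per1 on Pi-free medium. Each per1 array was under every Col-0 array, the change was -1.41 ± 0.12 (limma adjusted p = 0.0020), and it was called in 8 of 8 fits that left out an array. AT5G48430, another aspartyl protease, read 1006 and 1391 in Col-0 and 583 and 455 in per1 on control medium, and 478 and 690.2 in Col-0 and 274 and 239.9 in per1 on Pi-free medium. Its genotypes were separate within each medium but not across media, since the per1 control arrays and a Col-0 Pi-free array overlapped, and the change was -1.15 ± 0.15 (limma adjusted p = 0.012). SBT3.5, a subtilase, a serine protease of the secretory pathway, fell by 0.86 ± 0.14 on the log2 scale (349 to 506 in Col-0 and 164 to 239.6 in per1). The cortex markers AT1G09750 and AT1G62500, all of the listed cortex genes, summed to 733 to 1150 in Col-0 and 432 to 488 in per1. AT1G62500 by itself had a change of -0.39 ± 0.18 that did not pass (limma adjusted p = 0.36). In bulk roots, fewer cells of a type and less RNA per cell cannot be told apart.

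Of the remaining large falls, AT1G05340 showed the largest gap between media. Its product is short, with a cysteine-rich membrane segment, and belongs to a family linked to stress tolerance. Its signals were 295 and 383 in Col-0 and 181 and 244 in per1 on control medium, and 705 and 1449 in Col-0 and 214 and 334 in per1 on Pi-free medium. The change was -0.64 on control and -1.86 on Pi-free medium, with a mean of -1.25 ± 0.23 (limma adjusted p = 0.044), and the difference between media did not pass the test. AT2G41650, with no role given here, read 1812 and 1608 in Col-0 and 715 and 626 in per1 on control medium, and 1687 and 1221 in Col-0 and 790.5 and 702 in per1 on Pi-free medium. The mean change was -1.13 ± 0.11 (limma adjusted p = 0.0035), and the call was made in all 8 fits that left out an array. AT2G21195 fell, with changes of -1.14 on control and -0.85 on Pi-free medium. AT1G67910 fell by 0.81 ± 0.13, AT3G47650, a BSD2-type chaperone of Rubisco assembly in plastids, by 0.79 ± 0.15, and SP1L2, a SPIRAL1-like protein of cortical microtubules, by 0.78 ± 0.13 on the log2 scale. All 4 had separate genotypes in both media.

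Gene families were described from lists of loci compiled from knowledge of the families, and 40 of 51 lists had at least 3 named loci. Of these, 21 held at least 1 call, and 32 of the 92 named calls fell in them. Among the 40 lists, 5 were added after the values were known. The background for all counts of calls below is 0.681% of named probesets called, 0.296% higher and 0.385% lower. Calls in both directions occurred in 3 families. Over all probesets the median change was -0.01 and 48.6% were above 0, which is the background for the medians below. Under other pseudocounts and scalings 7 family medians changed sign, none larger than 0.03 in size as reported: TBL proteins, WRKY factors, beta-glucosidases, peroxidases, family 9 glycosyl hydrolases, the ubiquitin group and xyloglucan endotransglucosylases. An unadjusted p under 0.05 was reached by 13.1% of named probesets, which stands beside the counts of 0 calls below.

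**Figure D3:**
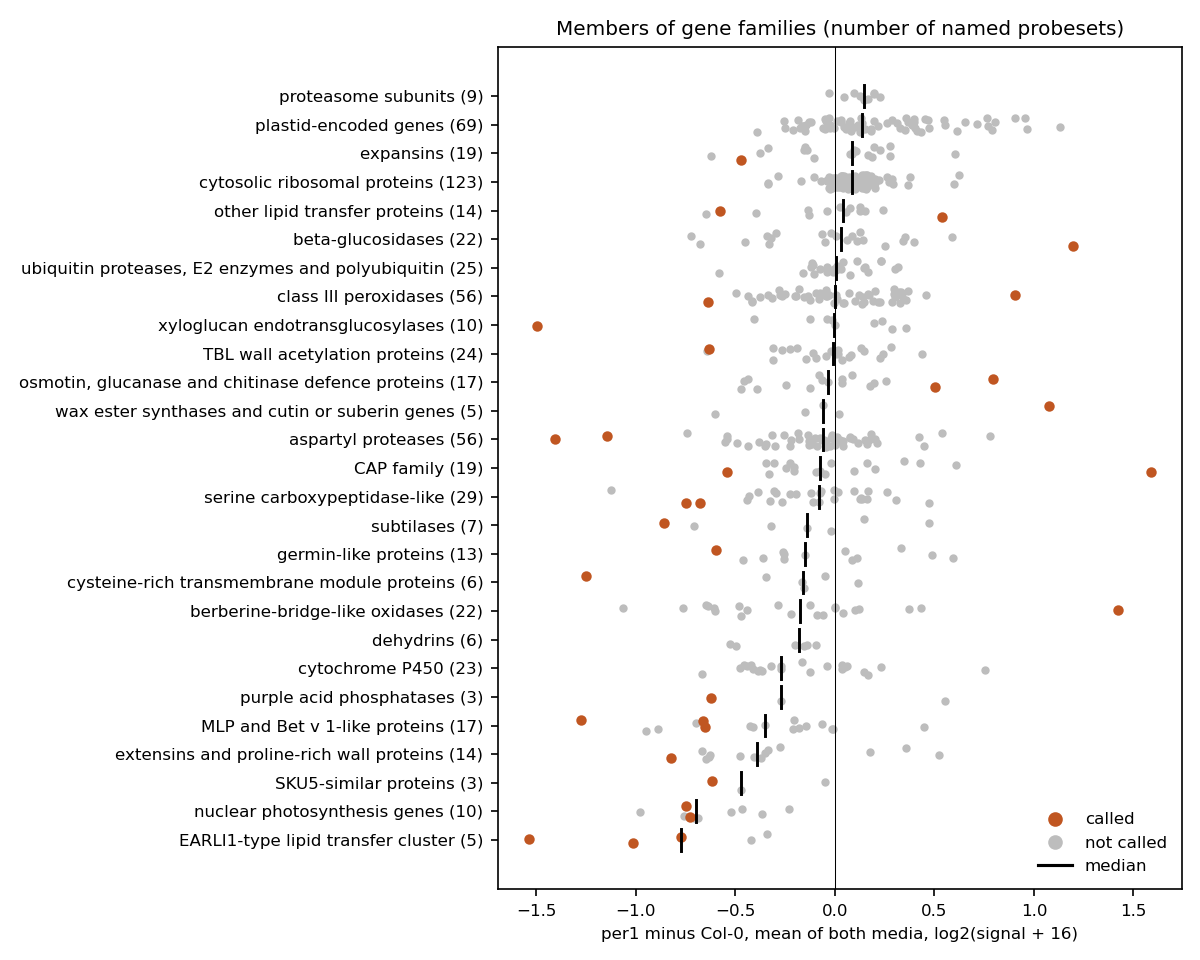
Change of each named family member in per1 against Col-0, mean of both media (x axis, log2(signal + 16)), for families with at least 1 call and 6 others, with the number of probesets in brackets. Orange points were called, grey points were not, and the black bars, the family medians, run from -0.77 for the EARLI1-type cluster to 0.15 for proteasome subunits.

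The EARLI1-type lipid transfer list, called a cluster here, was the family with the lowest median, -0.77 over 5 loci. It joins AT4G12490, AT4G12500 and AT4G12530 with AT4G22460 and AT4G22470, which lie elsewhere on chromosome 4. The median is the value of AT4G22470. All 5 loci had negative changes in both media, and 3 passed the test, against 0.385% of named probesets called lower. Besides AT4G12500 and AT4G12490 these included AT4G22470, which read 279.5 and 369 in Col-0 and 172 and 164 in per1 on control medium, and 201 and 200.1 in Col-0 and 116 and 123 in per1 on Pi-free medium. Its change was -0.77 ± 0.14 (limma adjusted p = 0.039), and the genotypes did not overlap. The mean signal of AT4G22470 lay under the median of all probesets, and leaving out 1 array gave changes from -0.87 to -0.68. Its call did not survive leaving out any 1 array. AT4G22460 had a change of -0.42 ± 0.11 that did not pass (limma adjusted p = 0.12), and AT4G12530 had a weak signal. The median was -0.87 on control and -0.67 on Pi-free medium. The other 14 lipid transfer proteins, which carry lipids or bind them outside the cell, had a median of 0.04, with AT3G53980 lower at -0.58 ± 0.09 and AT2G45180 higher at 0.54 ± 0.09.

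All 10 named nuclear photosynthesis genes had mean changes below 0 in per1 roots, with a median of -0.69, and 8 were separate and lower in both media, where 7.06% of all probesets were. The test was passed by 2, PETM (AT2G26500), a small subunit of the cytochrome b6f complex, and RCA, the Rubisco activase. Among all named probesets 0.385% were called lower. Of the 10 genes, 4 had a mean signal above the median of all probesets. The family median ran from -0.78 to -0.49 over the pseudocounts and scalings used. PETM read 356 and 467 in Col-0 and 199 and 239.8 in per1 on control medium, and 416 and 366 in Col-0 and 238 and 251 in per1 on Pi-free medium. RCA read 275 and 325 in Col-0 and 149.9 and 189.7 in per1 on control medium, and 307 and 276 in Col-0 and 165 and 186 in per1 on Pi-free medium. For both genes the per1 arrays lay below all Col-0 arrays, with changes of -0.75 ± 0.13 (limma adjusted p = 0.033) and -0.73 ± 0.13 (limma adjusted p = 0.043), and neither call survived leaving out any 1 array. LHCB4.1, a light-harvesting protein, had -0.76 ± 0.15 and an adjusted p of 0.052 in limma. The 3 green shoot markers, RCA, LHCB4.1 and LHCB4.2, summed to 558 to 706 in Col-0 and 293 to 391 in per1, and the part of shoot material in these values was not tested. The 69 genes encoded by the plastid itself had a median of 0.14, with 48 above 0, and 8 were separate and higher in both media, where 6.28% of all probesets were. None of them passed the test in limma, and 21 of the 69 had an unadjusted p under 0.05. The leading plastid gene, ndhH of the NADH dehydrogenase-like complex, had 0.96 ± 0.23 (limma adjusted p = 0.10).

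MLP and Bet v 1-like proteins, small proteins with a pocket for hydrophobic ligands, had 16 of 17 changes below 0 and a median of -0.35. This list was added after the values were known. The 3 that passed were all lower, where 0.385% of named probesets were called lower. AT4G23670 read 6145 and 8563 in Col-0 and 4314 and 4169 in per1 on control medium, and 7059 and 7363 in Col-0 and 5486 and 4416 in per1 on Pi-free medium. Its change was -0.66 ± 0.11 (limma adjusted p = 0.035), and the genotypes did not overlap on either medium. AT4G14060 fell by 0.65 ± 0.12 (297 to 331 in Col-0 and 172 to 227 in per1). AT1G30990 fell by 1.27 ± 0.22 (171 to 294 in Col-0 and 45.8 to 115 in per1), and its mean over the 8 arrays lay under the median of all probesets. AT4G23680 had -0.95 ± 0.20 and did not pass (limma adjusted p = 0.069).

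Structural wall proteins of the extensin and proline-rich type, which are crosslinked into the wall, had 11 of 14 changes below 0, a median of -0.39, and 5 members separate and lower in both media, where 7.06% of all probesets were. The 1 call was AT4G08410, an extensin-like protein, with signals of 2262 and 2834 in Col-0 and 1526 and 1680.1 in per1 on control medium, and 2559 and 2907 in Col-0 and 1242 and 1503 in per1 on Pi-free medium. The per1 arrays lay below all Col-0 arrays, and the change was -0.82 ± 0.10 (limma adjusted p = 0.0090). Its probeset is 1 of 4 in the family, and 1 of 3 among the 5 separate and lower members, of a type that can share probes with related transcripts, so these members may not be independent of each other. HRGP1 and AT1G23720 had changes of -0.63 ± 0.14 and -0.63 ± 0.15 that did not pass (limma adjusted p = 0.075 and 0.091), and both probesets are of this type.

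Enzymes that loosen and rebuild the wall split by member. Of 10 xyloglucan endotransglucosylases, which cut and rejoin xyloglucan chains, XTH26 alone passed. It read 204 and 106 in Col-0 and 66.2 and 50.8 in per1 on control medium, and 260 and 234 in Col-0 and 86.3 and 36 in per1 on Pi-free medium. The change was -1.50 ± 0.27 (limma adjusted p = 0.039), while the family median was -0.01. The mean signal of XTH26 lay under the median of all probesets, and leaving out 1 array gave changes from -1.74 to -1.25. Its call did not survive leaving out any 1 array. Of 19 expansins, EXPA18, a root hair expansin, fell by 0.47 ± 0.08 on the log2 scale (limma adjusted p = 0.030), with -0.23 on control and -0.71 on Pi-free medium. EXPA18 read 1272 and 1159.6 in Col-0 and 1029.6 and 1031 in per1 on control medium, and 1314 and 1369.8 in Col-0 and 869.6 and 765 in per1 on Pi-free medium. The expansin median was 0.09, and EXPB3 and EXPA15 had -0.37 ± 0.08 and -0.34 ± 0.07 without passing (limma adjusted p = 0.064 and 0.075). TBL36, of the family that acetylates wall polysaccharides, fell (1801 to 2049 in Col-0 and 1099 to 1342 in per1), a change of -0.63 ± 0.08 (limma adjusted p = 0.0090), while the median of its 23 named loci was -0.01. The TBL list was added after the values were known.

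XTH26 and EXPA18 are also root hair markers, and these were the 2 of 5 named root hair markers that passed. Both were lower, where 0.385% of named probesets were called lower. The other 3 had changes of -0.14 ± 0.11 for EXPA7, -0.25 ± 0.10 for the peroxidase AT4G26010 and -0.10 ± 0.08 for SCN1, a regulator of where root hairs form, and did not pass in limma (adjusted p = 0.60, 0.27 and 0.62). On control and Pi-free medium, EXPA7 had 0.02 and -0.30, AT4G26010 0.02 and -0.52, and SCN1 -0.11 and -0.09. A difference between media did not pass in limma for any of the 3. AT4G26010, the brightest of the 5, overlapped between genotypes on control medium. On Pi-free medium it read 4414 and 4002.5 in Col-0 and 2908 and 2949 in per1. Over both media the 5 summed to 7542 to 8788 in Col-0 and 5730 to 8383 in per1, so the pooled sums overlapped between genotypes. These sums do not show whether genotypes were separate within a medium.

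Serine carboxypeptidase-like proteins, peptidase relatives of which some act as acyltransferases, had 2 calls among 29, both lower, where 0.385% of named probesets were called lower. scpl26 read 1058 and 1045 in Col-0 and 592 and 595 in per1 on control medium, and 921 and 935 in Col-0 and 561 and 581 in per1 on Pi-free medium. Replicates differed by little, the change was -0.75 ± 0.07 (limma adjusted p = 0.0035), and the call was made in all 8 fits that left out an array. SCPL27 fell by 0.68 ± 0.10 on the log2 scale (limma adjusted p = 0.019). The family median was -0.08, with 19 of 29 below 0. Aspartyl proteases had 2 calls among 56, both lower (0.385% of named probesets) and described above, and a median of -0.06. Of 7 subtilases, on a list added after the values were known, SBT3.5 alone passed, and the median was -0.14.

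Several families held a single called gene or calls in opposite directions, where 0.296% of named probesets were called higher and 0.385% lower. The 19 CAP proteins had a median of -0.07: AT4G33720 rose, and AT4G25790 fell by 0.54 ± 0.09 (limma adjusted p = 0.031), with 943 to 1141 in Col-0 and 583 to 821 in per1. The 56 class III peroxidases, which use hydrogen peroxide in the wall, were split 28 above and 28 below 0. AT5G19890 rose and AT2G39040 fell, by 0.64 ± 0.12 on the log2 scale (limma adjusted p = 0.045). Of 22 berberine-bridge-like oxidases 15 were below 0, with a median of -0.17, although the 1 call, AT1G30760, was higher. The 22 beta-glucosidases had a median of 0.03, and BGLU46 was the 1 call.

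Defence proteins of the osmotin, glucanase and chitinase types had 2 calls among 17, both higher, where 0.296% of named probesets were called higher, and a median of -0.04. OSM34 was 1, and AT4G16260, a beta-1,3-glucanase, was the other. AT4G16260 read 2314 and 2188 in Col-0 and 2982 and 3226 in per1 on control medium, and 2134 and 2192 in Col-0 and 3214 and 3136 in per1 on Pi-free medium. All per1 arrays were above all Col-0 arrays, and the change was 0.51 ± 0.07 (limma adjusted p = 0.013). A germin-like protein, AT1G18980, fell by 0.60 ± 0.10 (limma adjusted p = 0.033), and sks16, related to the copper-oxidase-like SKU5, fell by 0.62 ± 0.09 on the log2 scale (limma adjusted p = 0.021). The SKU5-related list was added after the values were known. AT4G16980, an arabinogalactan protein, fell by 0.72 ± 0.12 on its bright probeset, while its dim second probeset had 0.04 ± 0.25 and did not pass (limma adjusted p = 0.97).

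Among 3 named purple acid phosphatases, enzymes that free phosphate from organic compounds, AT1G13750 passed. It read 469.6 and 512 in Col-0 and 331 and 356 in per1 on control medium, and 575 and 589 in Col-0 and 308 and 372 in per1 on Pi-free medium. The change was -0.62 ± 0.10 (limma adjusted p = 0.029), with -0.49 on control and -0.75 on Pi-free medium, and the genotypes did not overlap. The other members, PAP20 and AT1G25230, had 0.55 ± 0.31 and -0.27 ± 0.19 and did not pass in limma (adjusted p = 0.47 and 0.57).

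Ubiquitin-specific proteases, the enzyme class of UBP14, were listed with conjugating enzymes and polyubiquitin genes, and of these 25 genes 0 were called in limma and 3 had an unadjusted p under 0.05. They had a median of 0.00, with 13 above and 12 below 0, and the smallest adjusted p in limma was 0.20, for UBP19 at 0.32 ± 0.10. Of 9 proteasome subunits 8 were above 0, with a median of 0.15 and a highest change of 0.23, and 0 passed in limma, with 2 at an unadjusted p under 0.05. The 123 cytosolic ribosomal proteins had 105 above 0 and a median of 0.09, which was 0.09 on control and 0.07 on Pi-free medium. None of these 123 passed in limma, where 9 had an unadjusted p under 0.05 and the lowest adjusted p was 0.15, for AT2G20450 at 0.26 ± 0.07. Of them, 20 were separate and higher in both media and 2 separate and lower, where 6.28% and 7.06% of all probesets were.

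Families of detoxification and secondary metabolism had 0 calls in limma, where 6 of 23 cytochrome P450 genes, 4 of 13 glutathione S-transferases and 9 of 51 UDP-glycosyltransferases had an unadjusted p under 0.05. The P450 median was -0.27, with 15 below 0, and CYP71B6 and CYP71B24 had -0.47 ± 0.14 and -0.67 ± 0.22 (limma adjusted p = 0.15 and 0.21). Of the 23 P450 genes, 4 had a mean signal above the median of all probesets. The size of the P450 median depended on the pseudocount and scaling, from -0.39 to -0.11. Glutathione S-transferases had 11 of 13 below 0 and a median of -0.21, and GSTL3 at -0.76 ± 0.17 came closest to the threshold (limma adjusted p = 0.075). The 51 UDP-glycosyltransferases had a median of -0.06, with 7 separate and lower in both media and 0 separate and higher, where 7.06% and 6.28% of all probesets were. The 7 bHLH factors, a group that holds regulators of iron uptake, had 6 below 0 and a median of -0.23, led by ILR3 at -0.36 ± 0.13 (limma adjusted p = 0.25). All 6 dehydrins, hydrophilic proteins of water stress, had mean changes below 0, with a median of -0.18. Same signs in both media were found for 14 of 23 P450 genes and 10 of 13 glutathione S-transferases. They were found for 26 of 51 UDP-glycosyltransferases, 4 of 7 bHLH factors and 3 of 6 dehydrins, against 58.1% of all probesets. Medians on control and Pi-free medium were -0.13 and -0.07 for P450 genes and -0.23 and -0.04 for bHLH factors. For glutathione S-transferases they were -0.26 and -0.15. Another 10 families had 0 calls in limma and 0 to 3 members at an unadjusted p under 0.05: glutaredoxins, small heat shock proteins, pectin methylesterases, family 9 glycosyl hydrolases, WRKY factors, auxin genes, calcium sensors, histones, tubulins and actins, and iron and zinc transport genes. Their medians ran from -0.14 for the iron and zinc genes to 0.10 for tubulins and actins.

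The dehydrin AT4G38410 was called on Pi-free medium without being called for the average. Its signals were 421 and 362 in Col-0 and 579 and 620.2 in per1 on control medium, and 1856 and 2484 in Col-0 and 646 and 769 in per1 on Pi-free medium. It was higher in per1 on control medium (0.60, not past the test) and lower on Pi-free medium (-1.59, limma adjusted p = 0.047), and its average of -0.49 ± 0.11 did not pass (limma adjusted p = 0.081). Among named genes it alone passed the test of a difference between media, with a Pi-free minus control difference of -2.18 (limma adjusted p = 0.030). Without any 1 of the 8 arrays, 0 probesets were called on Pi-free medium in limma, with 1580 to 3620 at an unadjusted p under 0.05.

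Outside the families were 60 named calls. Signalling and membrane genes that rose included AT1G53430, a leucine-rich repeat receptor kinase (0.75 ± 0.14), AT5G65530, a receptor-like cytoplasmic kinase (0.66 ± 0.09), and AT1G19230, the NADPH oxidase RBOHE (0.68 ± 0.11). AT3G25610, the lipid-flipping ATPase ALA10, rose by 0.66 ± 0.09 (441 to 476 in Col-0 and 699.6 to 814 in per1). AT1G12010, an ACC oxidase of ethylene synthesis, rose by 0.64 ± 0.10, with 0.38 on control and 0.90 on Pi-free medium. Genes of RNA processing that rose were AT2G29210, a PWI-domain splicing factor (0.75 ± 0.09), AT2G16860, the SYF2 splicing factor (0.43 ± 0.08), and AT4G02940, the RNA demethylase ALKBH10B (0.55 ± 0.08). AT2G29210 read 651 and 839.7 in Col-0 and 1417 and 1275 in per1 on control medium, and 847 and 794 in Col-0 and 1303 and 1306 in per1 on Pi-free medium. Its per1 arrays were all above its Col-0 arrays, and the limma adjusted p was 0.0090. The chaperone Hsp70-2 rose by 0.54 ± 0.07 (742 to 875 in Col-0 and 1174 to 1254 in per1). Of those that fell, CRK (AT4G01710), a subunit of the actin-nucleating Arp2/3 complex, fell by 0.53 ± 0.09 and IQD30, a calmodulin-binding protein, fell by 0.52 ± 0.09. These genes were picked for having a known role after their values had been seen, and all were called by limma with genotypes separate in both media.

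The numerically largest changes were at weak signals, among the 16 named calls at or under the median signal, and these genes were also chosen after their values had been seen. QQS, an orphan gene known for an effect on starch content, read 6.7 and 17.7 in Col-0 and 103 and 122 in per1 on control medium, and 1.9 and 16.5 in Col-0 and 175 and 156 in per1 on Pi-free medium. All per1 arrays were above all Col-0 arrays, none of which exceeded 17.7, and the change was 2.56 ± 0.25 (limma adjusted p = 0.0035). AT5G15360 read 65.5 and 32.3 in Col-0 and 406 and 321 in per1 on control medium, and 66 and 30.2 in Col-0 and 327 and 322 in per1 on Pi-free medium. Its change was 2.53 ± 0.24 (limma adjusted p = 0.0031), as large on control (2.59) as on Pi-free medium (2.47), and it was called in all 8 fits that left out an array. NDB4, an NAD(P)H dehydrogenase of the mitochondrial inner membrane, rose by 1.72 ± 0.21 (12.4 to 25.7 in Col-0 and 65.2 to 152 in per1). AT1G52820, a 2-oxoglutarate-dependent oxygenase, fell (110.5 to 291 in Col-0 and 17.5 to 68.9 in per1), with a change of -2.16 ± 0.35 (limma adjusted p = 0.030). AGL28, a MADS-box factor, fell by 1.19 ± 0.22 (25.9 to 41 in Col-0 and 2.3 to 12 in per1), and all its signals were weak.

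The calls were spread over all 5 chromosomes of the TAIR10.1 annotation, with unequal directions. Chromosome 5 held 17 higher and 1 lower call among 3008 named probesets, and chromosome 4 held 5 higher and 19 lower among 1962. Chromosome 1 had 10 higher and 16 lower, chromosome 2 had 5 and 8, and chromosome 3 had 3 and 8. Over all named probesets the share with a change above 0 was 47.5% to 49.9% on each chromosome, and on chromosome 5 it was 48.2%. No test was made of this split, which was noticed in the data. The share of named probesets called was 1.22% on chromosome 4 and 0.401% on chromosome 3. Some called genes lie within 10 coding genes of each other. AT4G12490 and AT4G12500 both fell, and AT5G03320 and AT5G03380 both rose, by 0.58 ± 0.11 and 0.56 ± 0.09 on the log2 scale. BGLU46 rose beside AT1G61840, which fell by 1.18 ± 0.20, AT4G33720 rose near AT4G33700, which fell by 0.50 ± 0.09, and AT2G41730 rose near AT2G41650, which fell.

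**Figure D4:**
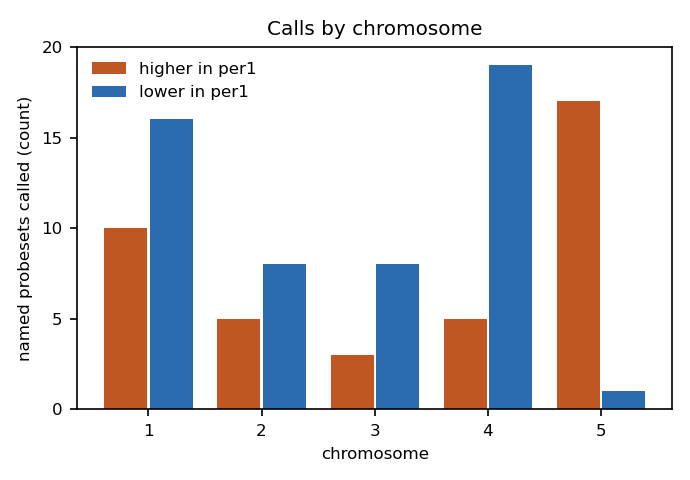
Number of named probesets called higher (orange) and lower (blue) in per1 (y axis, from 0) on each of the 5 chromosomes (x axis). Chromosome 5 has 17 higher and 1 lower, and chromosome 4 has 5 higher and 19 lower.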

How the data were processed

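Per the deposited file, each array has a column of linear signal intensities, 1 per probeset. How probes were summarised is not given in the sources used here. A trimmed mean (2% at each end) was 500 on every array, so the authors deposited values scaled to a common level. Of 22810 probesets, 64 controls were left out. The platform annotation gave 1 gene for 13513 probesets, of which 13436 matched a locus of TAIR10.1 RefSeq. The others are unnamed here. With limma 3.58.1 in R 4.3.3, log2(signal + 16) was fitted with a mean for each group, which left 4 residual degrees of freedom over 8 arrays, and variances were moderated along a trend in intensity. P-values were Benjamini-Hochberg adjusted over 22746 probesets and called under 0.05. The method was tested on simulated data with effects placed only in probesets above the median signal. The simulated spread followed intensity alone, as the fitted trend assumes, so that test could not check the trend. The number of arrays limits the precision. Named were the 12 highest and 12 lowest called genes above the median signal with genotypes separate in both media, called family members, the leading members of families without a call, and genes called in 1 medium. The members and lists were chosen with earlier results of these data known, and family memberships come from knowledge, not from the annotation. Alternatives changed the pseudocount, scaling, filter, variance model, design and arrays used.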

Additional observations from a re-analysis of the deposited data

Results flagged for a closer look

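The dehydrin AT4G38410 had a genotype effect that differed between media by -2.18 on the log2 scale, Pi-free minus control, and 2 probesets in all passed that test in limma. It was higher in per1 on control medium and lower on Pi-free medium. The 25S ribosomal RNA control probeset, which no comparison used, was higher in per1 than in Col-0 in every pair of arrays with the same medium and replicate number. The ratio was 2.12 (replicate 1) and 1.74 (replicate 2) on control medium and 1.71 and 1.69 on Pi-free medium. It was also higher in replicate 2 than in replicate 1 in each group. Replicates 1 and 2 read 47 and 117.2 in Col-0 control and 51.8 and 143.4 in Col-0 Pi-free. They read 99.7 and 203.5 in per1 control and 88.4 and 241.8 in per1 Pi-free. The part of this probeset in the other results was not tested.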

How the results depend on the processing

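All 92 named calls kept their sign under every alternative. Without an array, the main count ran from 12 to 232 (separate in both media 12 to 221), the control count from 1 to 14, the Pi-free count stayed at 0 with 1580 to 3620 unadjusted p under 0.05 in limma, and the count for a difference between media ran from 0 to 2. In such fits a group with 1 array is assumed to vary like the others. Of the 92, 5 were called in all 8 of these fits and 23 in none. The per1 Pi-free arrays mattered most for the main count. Without an intensity trend 0 probesets passed in limma for the main effect, for its separate genes, in control, in Pi-free or between media, with 2845 unadjusted p under 0.05 for the main effect, 2062 in control, 2112 in Pi-free and 1196 between media, and the cause was not tested. Restricted to probesets above the median signal, the counts were 365 (347 separate), 54 in control and 63 in Pi-free, where fewer probesets were tested. A robust trend gave 22 in control and 17 in Pi-free, a pseudocount of 1 gave 20 and 16, and a pseudocount of 64 gave 2 in Pi-free and 1 between media, as did quantile normalization between media with 1. The replicate numbers are not stated to mark a shared batch, and the 6 correlations of replicate differences between groups were 0.00205 to 0.0771. With the replicate number as a block the counts were 357 (327 separate), 42 in control and 48 in Pi-free, and all 92 named calls were among them. Lower calls made up 60.8% of the main calls and 55.6% to 60% under other scalings and pseudocounts. Leaving out 1 array gave 49.2% to 75%: 50% without Col-0 Pi-free replicate 1 or per1 control replicate 2 and 49.2% without Col-0 Pi-free replicate 2. Weak signals limit what the largest changes show, since 14.3% to 16% of probesets lay at or under 16.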
